A study of Mus musculus with 4 samples.

Results

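The matrix metalloproteinases (MMP genes), the mostly membrane-bound ADAM family, the secreted ADAMTS proteases and their inhibitors, the TIMP genes, were described in cultured mouse pancreatic ductal cells. A gene was a member when its deposited symbol began with Mmp, Timp, Adam or Adamts followed by a digit, and the transcript with the highest mean count stood for it. This gave 78 of the 22869 gene symbols, namely 23 MMP, 32 ADAM, 19 ADAMTS and 4 TIMP genes. Of these, 62 passed the filter on low counts and were tested, and 16 were not.

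MMPs are zinc-dependent enzymes that cut collagens, laminins and other matrix proteins, and most are made as inactive precursors. Most ADAMs sit in the cell membrane. Not all of them are active proteases, and those that are release the outer parts of growth factors, cytokines and receptors. ADAMTS enzymes are secreted and act mainly on proteoglycans and procollagens. TIMPs bind the active site of MMPs, and TIMP3 also inhibits several ADAM and ADAMTS enzymes. In the pancreas, MMP7 is known as a product of ductal and metaplastic epithelium, and interstitial collagenases and gelatinases are known mostly from stromal and inflammatory cells.

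The libraries labelled knockout (n = 2) came from mice with the genotype Sox9CreER;HhexL/L, and the control libraries (n = 2) from HhexL/L littermates without the Cre. All animals were adult, of the C57BL/6 strain, carried the floxed alleles and had not been induced in vivo. Ductal cells of both groups received 500 nM 4-hydroxytamoxifen, which activates the Cre, for 4 days in culture. The Cre is driven by the Sox9 promoter, and since no group carried the Cre without floxed alleles, effects of the Cre and of Hhex loss cannot be told apart. The mean level of Hhex was not lower where the Cre was present, and the groups overlapped. Hhex had 23.6 and 39.0 CPM (library-size-normalised counts, with TMM factors) in the libraries labelled knockout, against 24.8 and 17.7 CPM in the controls (edgeR adjusted p = 0.734). The deleted part of Hhex is not given in the labels, so this count checks the deletion only in part, and the group is named by its label throughout.

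The libraries held 25257778 to 39582625 counts. The ductal keratins Krt18 and Krt8, the highest of 10 ductal markers, lay between 3521 and 9242 CPM in every library. Of the 10 markers, 5 had positive and 5 negative fold changes, and 0 were called by edgeR. At an unadjusted edgeR p under 0.05, 1 was higher, Sox9, and 2 were lower, Muc1 and Cftr. Muc1 had 1.79 and 7.35 CPM in the libraries labelled knockout, against 22.7 and 19.2 CPM in the controls. Cftr had 13.1 and 22.9 CPM, against 33.6 and 35.1 CPM in the controls. Summed over 10 fibroblast and stellate markers, the level was 6.83 and 9.29 CPM in the libraries labelled knockout, against 15.4 and 10.7 CPM in the controls, and the highest of them, Col1a1 and Acta2, reached at most 5.21 CPM. Sums over the endothelial, neutrophil, acinar, endocrine and T and natural killer markers stayed at or under 9.44 CPM in every library, and the acinar gene Amy2a5 had 0 counts in all 4. The highest markers of these lists, Vwf and Tek, S100a9 and Mpo, Cela1 and Cela2a, Chga and Ins2, and Cd3e and Cd3d, reached at most 3.83 CPM. The summed macrophage and myeloid list was 127 and 214 CPM in the libraries labelled knockout and 165 and 149 CPM in the controls, most of it Cd14. Cd68 had 16.2 and 3.94 CPM, against 7.36 and 10.8 CPM in the controls, and the defining markers Csf1r and Ptprc stayed under 1.5 CPM. Mesothelial Msln stood at 3139 and 4486 CPM, against 1584 and 2013 CPM in the controls, with Wt1, Upk3b, Lrrn4 and Krt14 all under 2 CPM. In cultured cells measured in bulk, fewer cells of a type and less RNA per cell cannot be told apart. In the SD of the log2 CPM difference, control replicate 2 was closer to labelled knockout replicate 1 (0.540) and control replicate 1 to labelled knockout replicate 2 (0.563) than the controls were to each other (0.612) or the libraries labelled knockout to each other (0.696).

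Of the 10 protein-coding genes that form an unbroken run of MMP genes on chromosome 9 (gene order from the RefSeq table of GRCm38.p6, whereas the deposited tables were made on mm9), 8 had the letters TGANTCA in their RefSeq promoter windows. TGANTCA, with any base at N, takes in TGAGTCA and TGACTCA, the core recognised by dimers of Fos and Jun proteins. These proteins are known as regulators of MMP transcription. TGANTCA reads alike on both strands, and the counts given here also take in A or T at N. The windows ran from 250 bases before to 50 bases after a gene's start, and 7.81% of all 32851 windows held the letters. Of the 18 MMP genes with a window, 8 had a match, all of them in this run, against 4 of 16 ADAM, 0 of 10 ADAMTS and 0 of 4 TIMP genes. Counted by gene, 12 of the 48 members with a window had a match, against 8.97% of all 27025 symbols with one. A match is a description of the letters and not evidence of binding.

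The 150 bases before the start of 4 of these genes are shown because they hold the same letters close to the start while their RNA levels differed widely. Mmp7 encodes matrilysin, Mmp13 a collagenase, and Mmp3 and Mmp10 the stromelysins. Capitals mark TGANTCA, the bases are from RefSeq on GRCm38.p6, and all 4 genes lie on the plus strand. The windows are chr9:7691940-7692089 for the first of the 2 Mmp7 starts (the second has no match), chr9:7272364-7272513 for Mmp13, chr9:7445672-7445821 for Mmp3 and chr9:7502192-7502341 for Mmp10.
Mmp7: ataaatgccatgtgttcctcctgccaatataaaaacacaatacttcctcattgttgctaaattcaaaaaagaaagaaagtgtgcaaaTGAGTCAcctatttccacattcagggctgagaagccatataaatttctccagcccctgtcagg
Mmp13: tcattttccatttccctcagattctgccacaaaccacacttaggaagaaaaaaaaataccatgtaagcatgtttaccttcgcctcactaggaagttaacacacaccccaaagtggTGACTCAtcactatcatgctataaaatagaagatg
Mmp3: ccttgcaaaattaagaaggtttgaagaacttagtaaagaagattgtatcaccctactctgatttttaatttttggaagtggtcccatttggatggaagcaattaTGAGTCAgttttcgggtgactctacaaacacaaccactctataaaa
Mmp10: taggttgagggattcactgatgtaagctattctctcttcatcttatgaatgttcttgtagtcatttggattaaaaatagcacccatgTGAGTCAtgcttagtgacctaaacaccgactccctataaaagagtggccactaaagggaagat
The first base of the match lies 63 bases before the start in Mmp7 and in Mmp10, 35 bases before it in Mmp13 and 46 bases before it in Mmp3.

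Mmp7 and its neighbours stood at opposite ends of the range. Mmp7 had 483 and 1235 CPM in the libraries labelled knockout, against 387 and 353 CPM in the controls. Mmp13 stood at 0.670 and 0.581 CPM, against 1.86 and 2.47 CPM in the controls. Mmp3 was at most 0.487 CPM and Mmp10 at most 0.608 CPM in any library. Over the run as a whole, 7 of the 10 genes averaged under 1 CPM over the 4 libraries. Mmp20, the enamel protease gene next to Mmp7 in the gene order, had 35 and 38 counts in the libraries labelled knockout and 23 and 28 counts in the controls. Mmp1a, Mmp8 and Mmp27 had at most 13 counts in any library and were not tested.

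**Figure D1:**
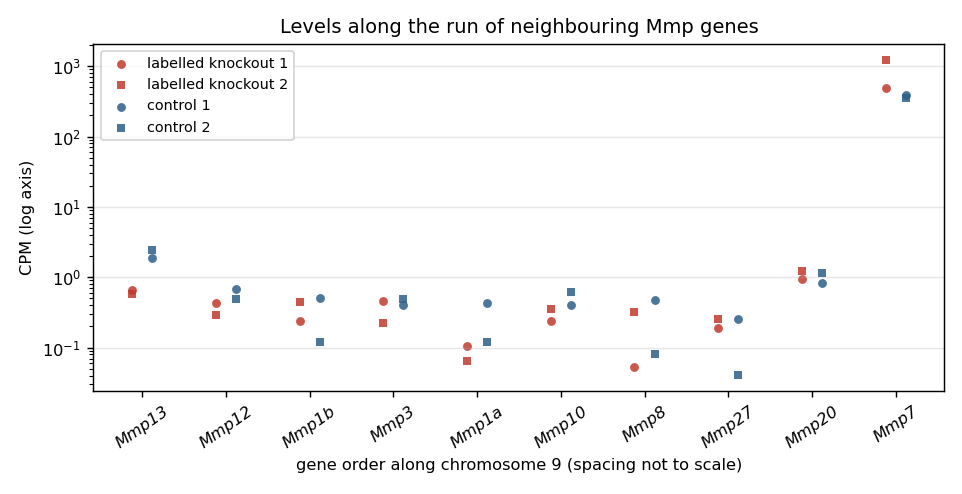
CPM on a log axis for the 10 neighbouring MMP genes in their order along chromosome 9, with 1 point per library (red, labelled knockout; blue, control; circle, replicate 1; square, replicate 2). Mmp7 lies between 353 and 1235 CPM, and the other 9 genes at or under 2.47 CPM.

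Per transcript length, the inhibitor Timp3 and the protease Mmp7 stood far above the other members. In deposited RPKM averaged over the 4 libraries, Mmp7 stood at 528 and Timp3 at 444, which were places 29 and 35 among all 22869 symbols. Adam9, Mmp14, Adam8 and Timp2 followed with 63.4, 41.5, 26.8 and 26.0 RPKM. In all, 9 of the 78 members averaged at least 10 RPKM and 17 at least 1 RPKM. Timp3 made up 91.9% to 95.5% of the summed TIMP RPKM of a library, and Mmp7 made up 81.6% to 93.4% of the summed MMP RPKM. The order of Mmp7 and Timp3 differed between libraries. Timp3 RPKM divided by Mmp7 RPKM was 1.65 and 0.478 in the libraries labelled knockout, against 0.818 and 0.964 in the controls.

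**Figure D2:**
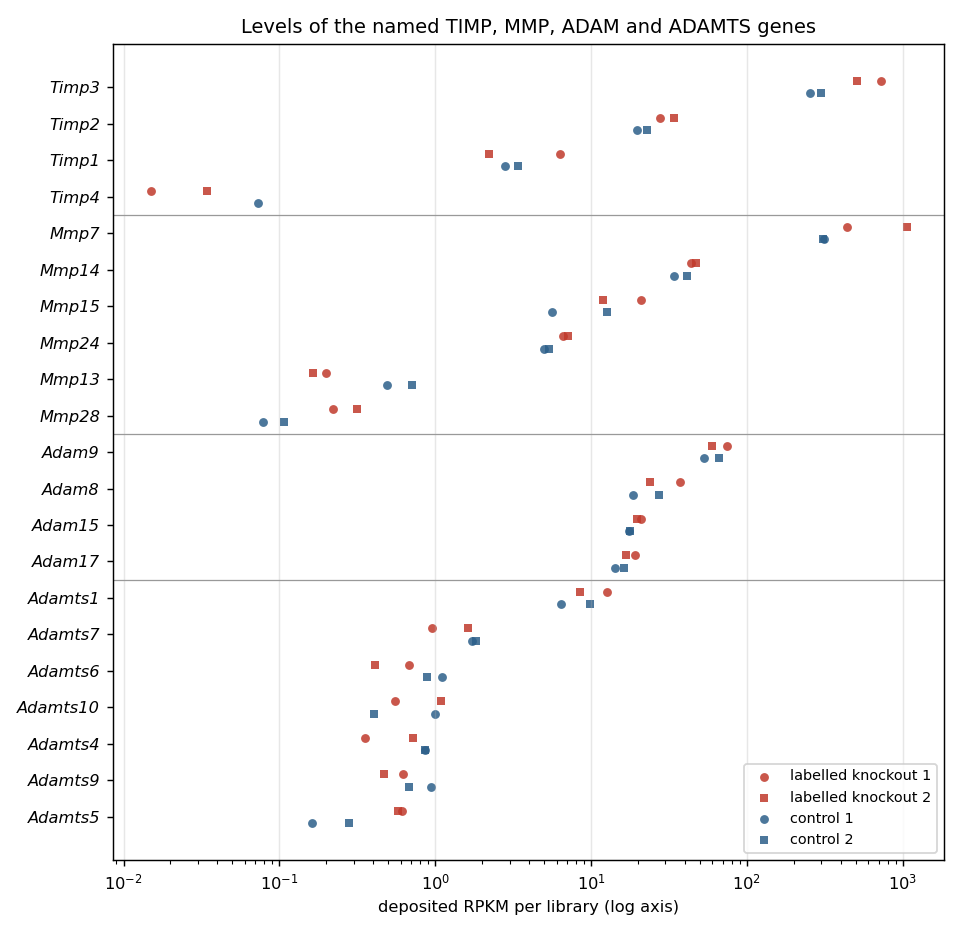
Deposited RPKM on a log axis for the named members, grouped from the top into TIMP, MMP, ADAM and ADAMTS genes, with 1 point per library (red, upper of each pair of rows, labelled knockout; blue, lower, control). Timp3 and Mmp7 lie above 250 RPKM in every library, and Timp4 in control replicate 2, at 0, has no point.

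None of the 62 tested members passed an edgeR quasi-likelihood adjusted p of 0.05, taken over all 20949 transcripts, of which 0.153% were called. Of these transcripts 22 were higher (0.105%) and 10 lower (0.0477%), and with library totals or upper-quartile factors in place of TMM 0 were higher and 5 lower. At an unadjusted p under 0.05 there were 6 members, 9.68% of those tested, against 7.51% of all transcripts. The 4 higher and 2 lower members compare with 4.7% of all transcripts higher and 2.81% lower. DESeq2 called 2 members, Timp3 and Adamts5, 3.23% of those tested, against 1.75% of all transcripts. It gave no adjusted p to many members at low levels, such as Mmp2, Mmp9 and Mmp28. Both shares count transcripts without a DESeq2 adjusted p as not called. The groups did not overlap in 23 members, 10 higher and 13 lower, which is 37.1% of those tested, against 36.1% of all transcripts (19.1% higher and 17.0% lower). The shares without overlap were close to the background. The median log2 fold change was -0.25 over the tested members and -0.01 over all transcripts. Without control replicate 1 the members' median was 0.15.

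Leaving out 1 library changed the calls more than any other choice. Without labelled knockout replicate 1, 6 members were called, beside 7.86% of all transcripts, and without replicate 2, 8 members, beside 8.69%. Without control replicate 1 or 2 no member was called, beside 0.0% and 0.0131% of all transcripts. In each case the library left alone in its group is assumed to vary like the other group. By Xist and Ddx3y, with values given below, labelled knockout replicate 2 was the only female library. The fit without labelled knockout replicate 1 therefore sets a female library against male controls. The part of sex in the values with a library left out was not tested.

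The inhibitors had positive fold changes wherever they could be tested. Timp3, whose protein binds to the extracellular matrix, had 4253 and 3147 CPM in the libraries labelled knockout, against 1687 and 1816 CPM in the controls. Both libraries labelled knockout were above both controls. The log2 fold change was 1.08 ± 0.30 (SE), a 2.11-fold difference (95% interval 1.297 to 3.44; edgeR adjusted p = 0.365, DESeq2 adjusted p = 1.42e-05). The Timp3 log2 fold change was 0.82 with labelled knockout replicate 1 left out and 1.26 with replicate 2 left out. It was 1.02 without control replicate 1 and 1.17 without control replicate 2. In GENCODE M21 an exon of Timp3 overlaps an exon of Syn3 on the other strand, and Syn3 stood at 2.30 to 2.95 CPM.

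Timp2, which inhibits MMP2 and also takes part in its activation, had 126 and 164 CPM in the libraries labelled knockout, against 101 and 108 CPM in the controls. The groups did not overlap, and the log2 fold change was 0.48 ± 0.17 (SE; edgeR adjusted p = 0.537). Without labelled knockout replicate 1, Timp2 had a log2 fold change of 0.63 (edgeR adjusted p = 0.00127), and without replicate 2 one of 0.25 that was not called (edgeR adjusted p = 0.416).

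Timp1, a soluble inhibitor encoded on the X chromosome, had 7.07 and 2.61 CPM in the libraries labelled knockout, against 3.53 and 3.93 CPM in the controls. The 2 libraries labelled knockout lay on either side of the controls (log2 fold change 0.41, edgeR adjusted p = 0.915). Xist, the X-inactivation RNA of female cells, had 0.750 and 304 CPM in the libraries labelled knockout, against 1.75 and 0.892 CPM in the controls. The part of the animals' sex in the Timp1 values was not tested. Without labelled knockout replicate 1 the Timp1 log2 fold change was -0.54 (edgeR adjusted p = 0.599), and without replicate 2 it was 0.91 (edgeR adjusted p = 0.0134). Timp4 had 1 and 2 counts in the libraries labelled knockout and 4 and 0 counts in the controls, and was not tested.

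**Figure D3:**
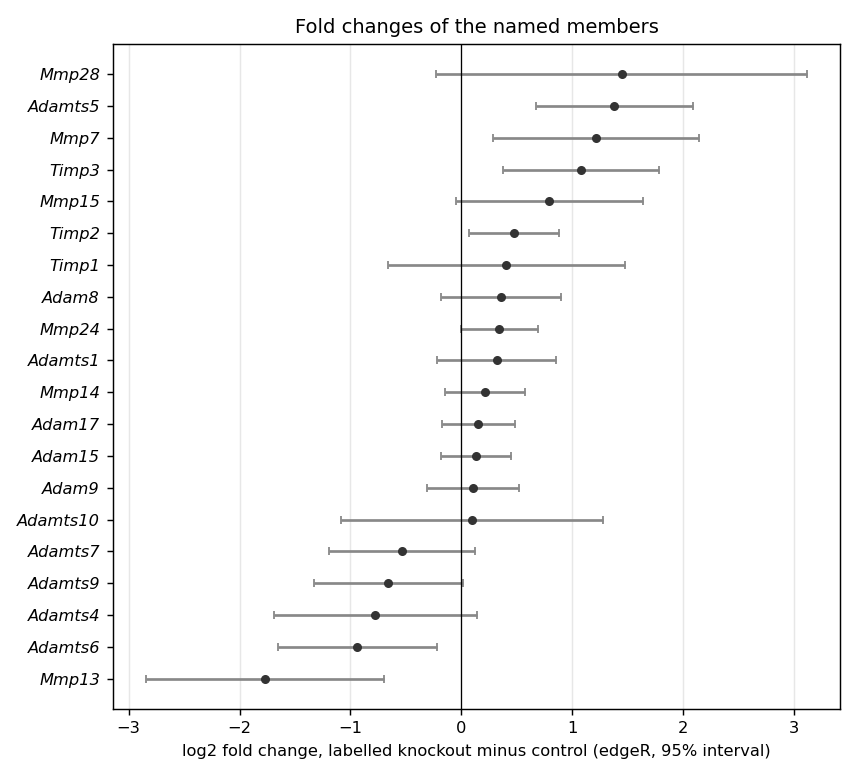
edgeR log2 fold changes, labelled knockout minus control, with 95% intervals, for the named members that were tested (2 libraries per group). The intervals of Adamts5, Mmp7, Timp3 and Timp2 lie above 0 and those of Adamts6 and Mmp13 below 0, before any adjustment for the number of transcripts.

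Among the MMP genes, 9 of 19 tested had positive and 10 negative fold changes, with a median log2 fold change of -0.07. Mmp7 was above both controls in both libraries labelled knockout, by the values given above. Its log2 fold change of 1.21 ± 0.40 (SE; edgeR adjusted p = 0.478) rested largely on replicate 2, which by Xist (304 CPM, against at most 1.75 CPM in the other libraries) and the Y-linked Ddx3y (0.548 CPM, against at least 108 CPM) was the only female library. The part of sex in the Mmp7 values was not tested. Without replicate 2 the log2 fold change was 0.36 and was not called, and without labelled knockout replicate 1 it was 1.71 (edgeR adjusted p = 2.36e-18). DESeq2 gave an adjusted p of 0.602.

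Mmp14, Mmp15 and Mmp24, which are membrane-type MMPs that act at the cell surface, were the next most abundant MMP genes per length, while Mmp16, Mmp17 and Mmp25 of the same type averaged under 1 RPKM. Mmp14, the activator of pro-MMP2, had 143 and 163 CPM in the libraries labelled knockout, against 124 and 139 CPM in the controls (log2 fold change 0.22 ± 0.15, SE; edgeR adjusted p = 0.865). The groups did not overlap but lay close together. Mmp15 stood at 114 and 67.8 CPM, against 34.0 and 71.0 CPM in the controls, so that the groups overlapped. Its log2 fold change was 0.79 ± 0.36 (SE; edgeR adjusted p = 0.695), and it was 0.354 without labelled knockout replicate 1 (edgeR adjusted p = 0.179), 1.11 without replicate 2 (edgeR adjusted p = 2.87e-11), 0.353 without control replicate 1 and 1.45 without control replicate 2.

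Mmp24 had 36.0 and 40.7 CPM in the libraries labelled knockout, against 30.3 and 30.0 CPM in the controls (log2 fold change 0.34, edgeR adjusted p = 0.667). Its exons overlap those of BC029722 on the other strand, which stood at 38.2 and 48.8 CPM, against 34.5 and 33.9 CPM in the controls, with the same log2 fold change of 0.34. The counting of strand is not given in the sources used here, so the reads of this pair may not have been told apart.

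Collagenases and gelatinases were near the floor of the measurement. Mmp13, which cuts fibrillar collagen, had 25 and 18 counts in the libraries labelled knockout, against 51 and 61 counts in the controls. The groups did not overlap, and the level was 3.41-fold lower with the knockout label (log2 fold change -1.77 ± 0.46, SE; edgeR adjusted p = 0.316, DESeq2 adjusted p = 0.0971). Mmp13 missed the threshold with each library left out, at log2 fold changes of -1.97 to -1.52. The summed RPKM of the gelatinases Mmp2 and Mmp9 was 0.396 and 0.283 in the libraries labelled knockout, against 0.391 and 0.281 in the controls. Mmp28, the epithelial MMP epilysin, had 24 and 30 counts, against 7 and 8 counts in the controls. The groups did not overlap, but the interval of its log2 fold change of 1.45 ran from -0.23 to 3.12 (edgeR adjusted p = 0.734).

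**Figure D4:**
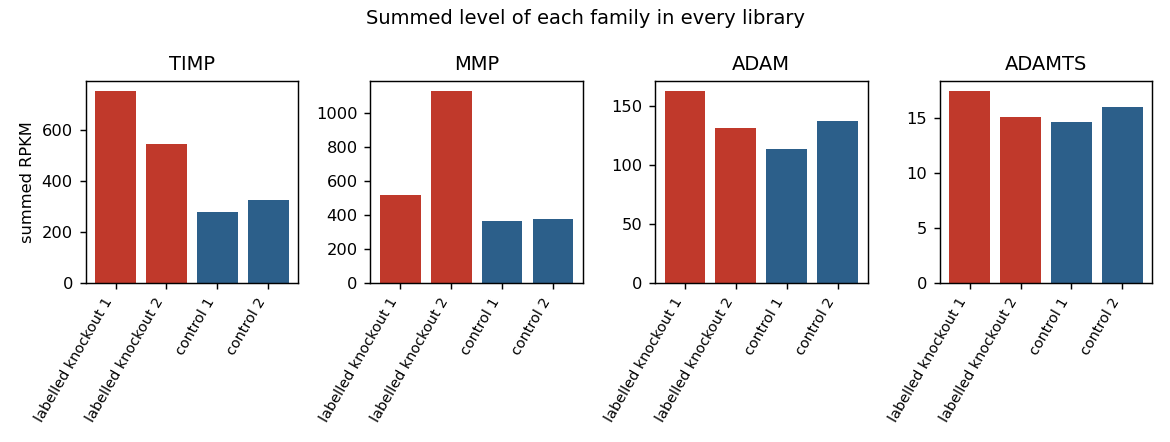
Summed RPKM of the TIMP, MMP, ADAM and ADAMTS genes in each library (red, labelled knockout; blue, control), on linear axes from 0 that differ in scale. The TIMP sums are 753 and 542 in the libraries labelled knockout against 278 and 323 in the controls, and the MMP sum of labelled knockout replicate 2 reaches 1133.

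Summed over the families, TIMP genes stood at 753 and 542 RPKM in the libraries labelled knockout, against 278 and 323 RPKM in the controls. MMP genes stood at 516 and 1133 RPKM, against 366 and 377 RPKM in the controls. In CPM the TIMP sums were 4386 and 3314, against 1791 and 1928 in the controls, and the MMP sums 807 and 1536, against 610.2 and 628 in the controls. Both sums, on both scales, were higher in each library labelled knockout than in either control, but their balance was not of one direction. The TIMP sum divided by the MMP sum was 1.46 and 0.479 in the libraries labelled knockout, against 0.759 and 0.857 in the controls, so that the controls lay between. No test was run on these sums, since the exact permutation test of 2 against 2 libraries cannot give a two-sided p under 0.333. The RPKM of a whole library summed to 339224 and 298758 in the libraries labelled knockout, against 268072 and 317727 in the controls, and was therefore lowest in control replicate 1.

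The ADAM genes with the highest RPKM, Adam9, Adam8, Adam15 and Adam17, are listed among the widely expressed ADAM proteases. Adam19, Adam28 and Adam33 of the same list reached at most 2.11 CPM in any library. Adam9 had 376 and 316 CPM in the libraries labelled knockout, against 299 and 344 CPM in the controls, and the groups overlapped (log2 fold change 0.11 ± 0.18, SE; edgeR adjusted p = 0.941). Adam17, the enzyme that releases TNF and several EGF receptor ligands, stood at 106 and 97.9 CPM, against 89.0 and 94.1 CPM in the controls. Its log2 fold change was 0.15 (95% interval -0.17 to 0.48; edgeR adjusted p = 0.895). Adam15 stood at 79.1 and 78.0 CPM, against 73.4 and 69.9 CPM in the controls, with an interval of -0.19 to 0.45 around a log2 fold change of 0.13 (edgeR adjusted p = 0.902). The 95% intervals of these 3 genes lay between -0.31 and 0.52 on the log2 scale, before any adjustment for the number of transcripts. Differences inside them remain possible with 2 libraries per group, and the smallest detectable difference was not computed.

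Adam8, an ADAM known from leukocytes and tumour cells, had 143 and 96.9 CPM in the libraries labelled knockout, against 79.4 and 108 CPM in the controls. The groups overlapped (log2 fold change 0.36 ± 0.23, SE; edgeR adjusted p = 0.832), and the difference depended on the library left out. The Adam8 log2 fold change was 0.026 without labelled knockout replicate 1 (edgeR adjusted p = 0.999), 0.59 without replicate 2 (edgeR adjusted p = 0.00265) and 0.148 without control replicate 1. The 9 widely expressed ADAM proteases summed to 761 and 647 CPM in the libraries labelled knockout, against 593 and 669 CPM in the controls. The 20 ADAM genes known from testis or epididymis summed to 5.09 and 7.35 CPM, against 8.96 and 5.80 CPM in the controls.

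ADAMTS genes had negative fold changes in 15 of 18 tested, with a median log2 fold change of -0.57, the lowest of the 4 families. Most of them were at low levels. Among all genes tested under 5 CPM the median was -0.26 and 31.0% were positive, against 16.7% of the tested ADAMTS genes. Adamts7 and Adamts9, which averaged 10.9 and 5.49 CPM, were also negative, while Adamts1 was positive. The part of level in the direction of the family was not tested. Adamts1, a protease of versican and aggrecan and the only family member above 2 RPKM, had 78.0 and 55.4 CPM in the libraries labelled knockout, against 43.9 and 63.0 CPM in the controls. The groups overlapped (log2 fold change 0.32 ± 0.23, SE; edgeR adjusted p = 0.869), and the Adamts1 difference likewise depended on the library left out. It was 0.031 without labelled knockout replicate 1 (edgeR adjusted p = 0.999), 0.53 without replicate 2 (edgeR adjusted p = 0.00878) and 0.081 without control replicate 1.

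Adamts5, the main aggrecanase of mouse cartilage, was one of the 3 ADAMTS genes with a positive fold change. It had 234 and 192 counts in the libraries labelled knockout, against 51 and 73 counts in the controls, or 6.27 and 6.19 CPM against 1.86 and 2.96 CPM in the controls. The groups did not overlap, but Adamts5 had the smallest unadjusted p of the members, so this adds nothing to it. The log2 fold change was 1.38 ± 0.30 (SE), a 2.61-fold difference (95% interval 1.59 to 4.26; edgeR adjusted p = 0.214, DESeq2 adjusted p = 0.0277). The Adamts5 log2 fold change was 1.35 without labelled knockout replicate 1 and 1.38 without replicate 2. It was 1.07 without control replicate 1 and 1.78 without control replicate 2.

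Adamts6 had 4.13 and 2.65 CPM in the libraries labelled knockout, against 7.47 and 5.60 CPM in the controls. Its groups did not overlap (log2 fold change -0.94 ± 0.31, SE; edgeR adjusted p = 0.479), and the log2 fold change was -1.34 without labelled knockout replicate 1 (edgeR adjusted p = 9.40e-04) and -0.69 without replicate 2, which was not called (edgeR adjusted p = 0.0961). Adamts9, a protease of versican and aggrecan, stood at 4.74 and 3.77 CPM, against 8.05 and 5.39 CPM in the controls (log2 fold change -0.66, edgeR adjusted p = 0.677). The Adamts9 log2 fold change was -0.87 without labelled knockout replicate 1 (edgeR adjusted p = 0.0395), -0.53 without replicate 2 (edgeR adjusted p = 0.237) and -0.34 without control replicate 1. Adamts4, another aggrecanase, and Adamts7, which cuts the cartilage protein COMP, had log2 fold changes of -0.77 (edgeR adjusted p = 0.738) and -0.54 (edgeR adjusted p = 0.754). Without labelled knockout replicate 2 these were -1.42 for Adamts4 (edgeR adjusted p = 0.00424) and -1.02 for Adamts7 (edgeR adjusted p = 9.69e-05). Without replicate 1 they were -0.32 for Adamts4 (edgeR adjusted p = 0.849) and -0.19 for Adamts7 (edgeR adjusted p = 0.862). The low Adamts4 count is uncertain, since the counting of strand is not given in the sources used here. Adamts10 had 2.84 and 5.84 CPM in the libraries labelled knockout, against 5.72 and 2.15 CPM in the controls, with wider differences within groups than between them.

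**Figure D5:**
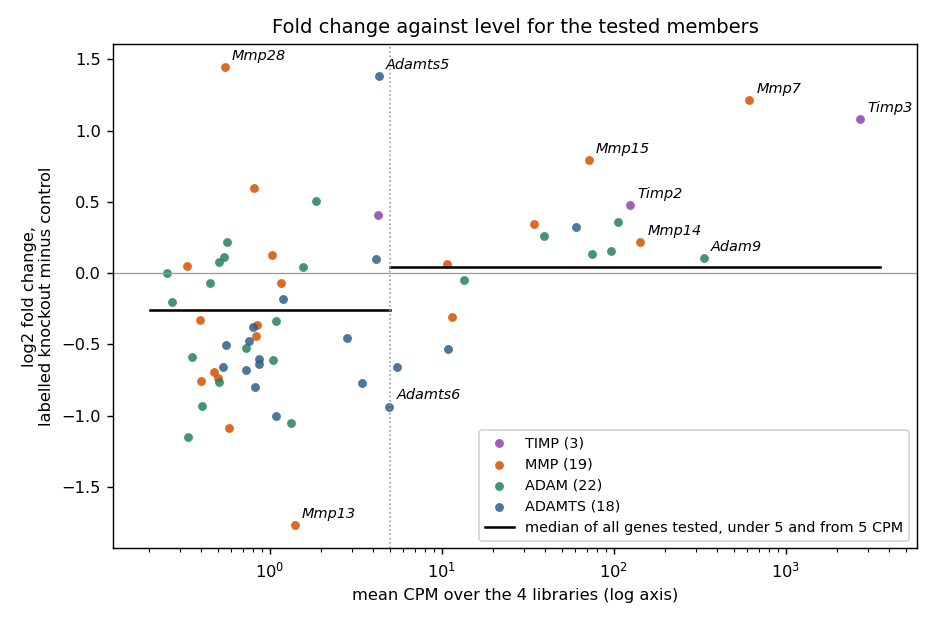
edgeR log2 fold change, labelled knockout minus control, against the mean CPM on a log axis for the 62 tested members, coloured by family. Black lines give the median log2 fold change of all genes tested, -0.26 under 5 CPM and 0.04 from 5 CPM, left and right of the dotted line.

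Direction went with level among the members. Of the 17 members averaging at least 5 CPM, 13 had positive fold changes (76.5%), with a median log2 fold change of 0.22. Among all genes tested at that level, with 1 transcript each, 57.5% were positive and the median was 0.04. Of the 45 tested members under 5 CPM, 13 had positive fold changes (28.9%), close to the 31.0% of all genes at that level, and their median was -0.46, against -0.26. Low genes outside the families therefore had negative values about as often.

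The low members also followed individual libraries more than the groups. Of the 61 members averaging under 5 CPM, control replicate 1 held the highest value in 39. Labelled knockout replicate 1 held the lowest value in 28 of them. In 33 of the 61 the 2 highest libraries were labelled knockout replicate 2 and control replicate 1, while this was so in 0 of the 17 members above that level. The 61 include the 16 untested members. These counts were not taken over all genes at that level, so whether they are particular to the members was not assessed. Their summed level was 46.2 and 57.6 CPM in the libraries labelled knockout, against 72.0 and 47.5 CPM in the controls. The endothelial, endocrine and T and natural killer marker sums ordered the libraries alike, and the fibroblast, myeloid, neutrophil and acinar sums ordered them otherwise. The endothelial sum, as an example, was 2.68 and 6.68 CPM in the libraries labelled knockout, against 9.44 and 3.45 CPM in the controls. The part of such other cells or of the library in these values was not tested.

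Genes that work with these proteases were listed alongside, and none of the 88 tested genes of the 5 lists was called by edgeR, with 15 at an unadjusted p under 0.05 (17.0%, against 7.51% of all transcripts). DESeq2 called 5 of them, 5.68%, against 1.75% of all transcripts, and both shares count those without a DESeq2 adjusted p as not called. Limma-trend on log2(RPKM + 1) called 2, Tnf and Nid1, 2.27%, against 0.907% of all transcripts, and called 0 of the 62 members. The shares of all transcripts were not matched to the level of the listed genes. Of 17 tested activators and regulators, 9 had positive fold changes. Plau, the urokinase gene, had 388 and 363 CPM in the libraries labelled knockout, against 179 and 237 CPM in the controls (log2 fold change 0.85, edgeR adjusted p = 0.216, DESeq2 adjusted p = 0.00106). Pcsk6, a proprotein convertase, stood at 29.8 and 21.0 CPM, against 12.02 and 15.7 CPM in the controls (edgeR adjusted p = 0.321). Tspan5, a tetraspanin that partners ADAM10, stood at 8.38 and 8.71 CPM, against 13.2 and 10.7 CPM in the controls (edgeR adjusted p = 0.637).

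Substrates that ADAMs shed from the membrane were evenly divided, with 13 positive and 13 negative fold changes among 26 tested. The EGF receptor ligand Ereg had 158 and 95.7 CPM in the libraries labelled knockout, against 70.6 and 74.6 CPM in the controls (edgeR adjusted p = 0.401). The adhesion receptor Cd44 stood at 264 and 346 CPM, against 469 and 471 CPM in the controls (log2 fold change -0.62, edgeR adjusted p = 0.435, DESeq2 adjusted p = 0.0358). Tnf stood at 0.241 and 1.16 CPM, against 3.10 and 3.08 CPM in the controls (edgeR adjusted p = 0.309). These 3 genes were chosen for the smallest p of their list, so that their groups did not overlap adds nothing to it. Over the list, the groups did not overlap in 15 of the 26 tested (57.7%), against 36.1% of all transcripts. Among tested MMP, ADAM, ADAMTS and TIMP genes this share was 64.7% from 5 CPM and 26.7% under 5 CPM. The share of all transcripts was not split by level, so the 57.7% is not read as a trait of the substrates.

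Matrix substrates were likewise divided, with 9 of 18 fold changes positive. The basement membrane gene Nid1 had 20.2 and 29.8 CPM in the libraries labelled knockout, against 10.2 and 9.45 CPM in the controls (log2 fold change 1.35, edgeR adjusted p = 0.115, DESeq2 adjusted p = 0.000128). The laminin gene Lamb3 stood at 294 and 316 CPM, against 157 and 216 CPM in the controls (edgeR adjusted p = 0.344, DESeq2 adjusted p = 0.0244). Another laminin gene, Lama3, stood at 76.7 and 95.2 CPM, against 51.7 and 68.4 CPM in the controls (edgeR adjusted p = 0.542).

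Of 13 other metalloproteinase and ADAMTS-like genes tested, 4 had positive fold changes. Ece1, the endothelin-converting enzyme, had 56.1 and 49.3 CPM in the libraries labelled knockout, against 77.7 and 129 CPM in the controls (log2 fold change -0.97, edgeR adjusted p = 0.287, DESeq2 adjusted p = 0.0107). Tll1, a tolloid-like procollagen protease, stood at 15.9 and 14.9 CPM, against 5.39 and 9.81 CPM in the controls (edgeR adjusted p = 0.343). Adamtsl4, an ADAMTS-like matrix protein without protease activity, stood at 11.4 and 31.3 CPM, against 10.8 and 14.1 CPM in the controls (edgeR adjusted p = 0.772).

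Of the 14 Fos, Jun, ETS and RUNX factor genes, all tested, 4 had positive fold changes, with a range from -0.55 to 0.08 on the log2 scale. Fosl2 had 158 and 148 CPM in the libraries labelled knockout, against 184.5 and 185 CPM in the controls (log2 fold change -0.28, edgeR adjusted p = 0.752). Jun stood at 47.4 and 61.9 CPM, against 68.1 and 66.0 CPM in the controls (edgeR adjusted p = 0.786). The ETS factor gene Etv4 had the lowest fold change of the list, at 14.1 and 8.74 CPM, against 16.4 and 17.2 CPM in the controls (edgeR adjusted p = 0.683).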

How the data were processed

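RNA of cultured pancreatic ductal cells was sequenced in 4 libraries, 2 per group. Libraries were made from total RNA with the Illumina TruSeq RNA v2 kit, per the labels' protocols. The authors deposited raw counts and RPKM values, 1 row for each RefSeq transcript. The genome build mm9 and the tool edgeR are named in the submitters' processing notes. The aligner, counter, strand setting and version are not given in the sources used here. Relative to control replicate 1, the ratio of deposited counts to RPKM was 0.832 in control replicate 2 and 1.22 and 1.06 in the libraries labelled knockout, so single genes were compared between libraries in CPM, genes with each other in RPKM, and family sums on both scales.

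Counts of all 28644 transcripts were filtered (filterByExpr, minimum count 10, minimum total 15), scaled with TMM and tested with edgeR 4.0.16 (R 4.3.3, quasi-likelihood F test, Benjamini-Hochberg over 20949 transcripts, threshold 0.05). SE is the log2 fold change divided by the root of F. Transcripts of 1 symbol can share reads, which concerns 12 members. The alternatives were other scaling factors, no filter, DESeq2 1.42.0, a robust fit, 1 transcript per symbol, counts summed per symbol, limma-trend (3.58.1) on log2(RPKM + 1) and log2(RPKM + 0.1), and each library left out. The steps were checked on simulated data.

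Members, gene lists and tests were chosen with earlier results of these data known. Named were any called member, the 12 members with the smallest unadjusted p, every TIMP gene, the 4 members with the highest RPKM in each other family, Hhex and Sox9, 3 genes of smallest p per related list and 2 of highest CPM per marker list. Others are named for their place on chromosome 9, their class, an overlapping exon or as a defining marker. Muc1 and Cftr are named as ductal markers with an unadjusted p under 0.05. Sox9 had 52.3 and 44.3 CPM in the libraries labelled knockout, against 18.0 and 21.4 CPM in the controls (adjusted p = 0.0512). The series' design gives 2 mice per group, so p-values measure the spread between these cultures.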

Additional observations from a re-analysis of the deposited data

How the results depend on the processing

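The count of 32 called transcripts moved with the setting. It was 5 with library totals and 5 with upper-quartile factors, 366 with DESeq2, 64 with the robust fit, 2 with 1 transcript per symbol, 14 with counts summed per symbol, 190 and 221 with limma-trend on log2(RPKM + 1) and log2(RPKM + 0.1), and 4 with limma-trend on unfiltered log2(RPKM + 1). Leaving out each library gave 0 to 1911. The count of called members, 0, became 2 with DESeq2 and was 0 in every further alternative with all 4 libraries. Leaving out each library gave 0 to 8 members, namely 6 without labelled knockout replicate 1 (9.23%, against 7.86% of all transcripts) and 8 without replicate 2 (12.5%, against 8.69%). Without control replicate 1 no transcript was called although 517 had an unadjusted p under 0.05. A single library then stands for a group and is assumed to vary like the other group. The 22 named genes with a fitted value kept their direction in all 242 values from the 11 alternatives with every library. These alternatives refit the same 4 libraries, and 12 members were named for the smallest p. Kept directions are therefore no independent support. With 1 library left out, 4 of 88 values reversed, in 3 genes. The log2 fold change ranged from -0.049 to 0.25 in Adam9, from -0.52 to 0.995 in Adamts10 and from -0.54 to 0.91 in Timp1. The cause was not tested. No paired analysis was possible because the labels give no numbers shared between the groups. The 16 untested members had at most 20 counts in any library, and no difference was assessed for them.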
